A study of Caenorhabditis elegans with 45 samples.

Results

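mir-57 is a microRNA (miRNA) gene of the nematode Caenorhabditis elegans. It was taken by its gene name from the deposited table of miRNA read counts, where it was 1 of 257 miRNA genes. Its level, its share of the miRNA reads, its rank and its spread between replicates are described in all 45 libraries, with the test of each mutant against wild type. miRNAs are short RNAs that guide Argonaute proteins to partly complementary messenger RNAs, which are then less translated or less stable. mir-57 belongs to the miR-10 family, whose members in flies and vertebrates lie in the Hox clusters. In the worm it is known for expression in posterior cells and for a negative regulatory loop with the posterior Hox gene nob-1. The libraries were made from whole animals, so the posterior expression could not be checked in them, and fewer cells of a type cannot be told apart from less mir-57 RNA per cell.

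The study changed single nucleotides in the 3′ non-seed part of let-7a, the miRNA that times the last larval transitions, and counted small RNAs by sequencing. There were 15 genotypes with 3 libraries each, lettered A, B and C. Hatched larvae were fed, grown at 20 °C for 45 hours and collected at the mid L4 stage. All 15 genotypes, wild type included, carried maIs105, a transgene on chromosome V that is known as an adult-stage reporter. Wild type (WT) was the strain VT1367, with that transgene and no let-7 change.

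Each mutant is named by the base of let-7a, its position from the 5′ end and the new base, and each was 1 strain with 1 let-7 allele. Mutants with no further label were U9G (ma453), A10U (ma454), A17U (ma450), U18A (ma435), A19U (ma436), G20C (ma452), U21A (ma456) and U22A (ma437). The other 6 also carried mnDp1(umnIs25) (X;V), labelled +/+. These were G11U (ma431), G12U (ma448), U13A (ma432), U14A (ma433), G15A (ma434) and U16G (ma449). The name Dp stands for a duplication in worm genetics, and what mnDp1 covers is not in the labels. They do not say either whether libraries of a genotype came from separate cultures, so p-values measure the spread between these libraries, which may be technical.

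Libraries held 1018112 to 3567734 miRNA reads (median 2137801). U9G replicate B stood apart: across miRNAs, its log2 levels had r = 0.859 with the median library, where every other library had at least 0.979. Results that rest on it are given with and without it. Of 257 miRNA genes, 61 were listed at 0 in all libraries, mir-1 of muscle and mir-124 of neurons among them, so shares and ranks refer to the miRNA genes that received counts. Of the other miRNAs known for 1 tissue or stage, lsy-6, of a single neuron, ranged from 26.2 to 60.1 counts per 1000000 miRNA reads (CPM). In the 44 libraries other than U9G replicate B, mir-228, of glia, ranged from 19069 to 46502 CPM, and mir-35 and mir-36, of embryos and the germ line, from 4098 to 11721 CPM and from 362 to 1481 CPM. U9G replicate B lay outside these ranges, with 1766 CPM of mir-228, 1176 of mir-35 and 10335 of mir-36.

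In the Ensembl annotation of the WBcel235 assembly, matched by gene ID, mir-57 lay on chromosome II from 7850499 to 7850597 on the minus strand, a hairpin of 99 bases. The build used for the counts is not given in the sources used here. The hairpin has 2 annotated mature products, one of 24 bases at 7850559 to 7850582 and one of 22 bases at 7850522 to 7850543. The count table gave 1 value for the gene, so reads of the 2 products cannot be told apart. The hairpin was intergenic among protein-coding genes, 701 bases from acr-7, which encodes an acetylcholine receptor subunit, and 2260 bases from T09A5.5. The first 5 bases of the hairpin, at its 5′ end, overlapped the non-coding RNA gene T09A5.19, annotated on the plus strand from 7850593 to 7850812. The labels do not say whether reads were counted by strand.

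mir-57 was among the abundant miRNAs in these libraries of mid L4 worms, among the miRNA genes that received counts. In wild type it had 24041 ± 8628 CPM (SD, n = 3), which was 2.40% ± 0.863 of the miRNA reads and rank 15. The most abundant miRNA genes, mir-70 with 184824 ± 19388 CPM and mir-58.1 with 168128 ± 28521 CPM, together held 35.3% of the wild-type reads. Each read stands for 1 small RNA, so these levels were not divided by length, but ligation of adapters favours some miRNAs over others and was not corrected. Levels of different miRNAs are therefore read counts, not molecule numbers.

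**Figure D1:**
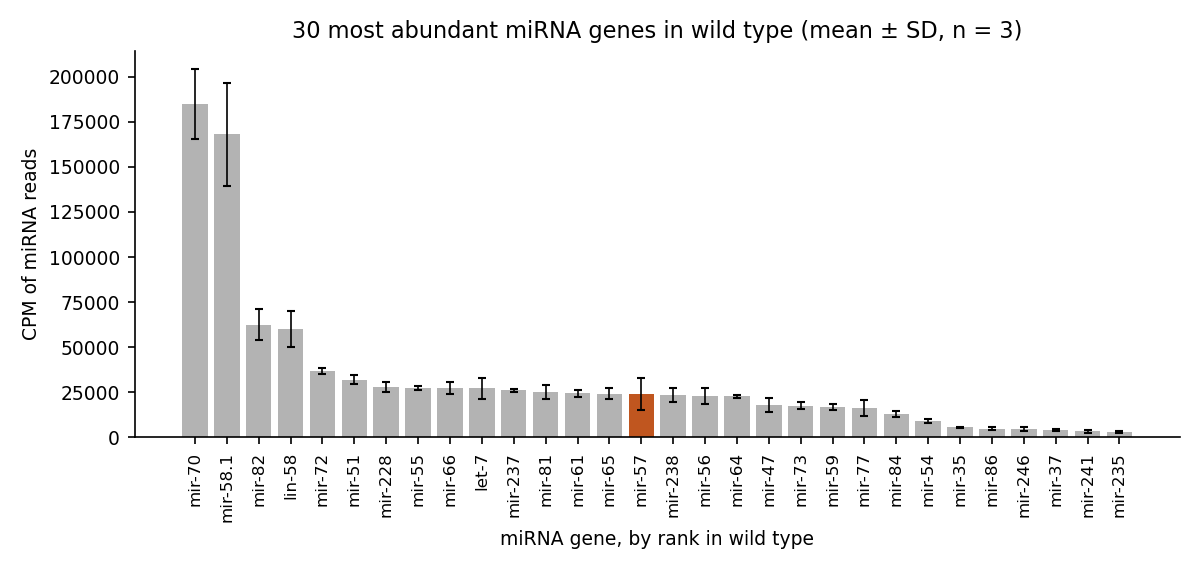
CPM of miRNA reads of the 30 most abundant miRNA genes in wild type, as bars of the mean with SD over 3 libraries, ordered by rank. mir-57 (orange, 24041 CPM) stands in a row of miRNAs with nearly the same level, and its SD of 8628 CPM is wider than that of its neighbours.

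The miRNAs next to mir-57 in the wild-type order differed from it by less than its own spread. Above it stood mir-81, a relative of the fly miRNA bantam, with 25170 ± 3884 CPM, mir-61, known for its part in vulval cell fate, with 24375 ± 1750 CPM, and mir-65 with 24229 ± 2988 CPM. Below it stood mir-238 with 23462 ± 3718 CPM, mir-56 of the mir-51 family with 23043 ± 4566 CPM, and mir-64 with 22873 ± 904 CPM. The exact rank of mir-57 is therefore not fixed by these libraries.

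Over all 45 libraries, mir-57 received between 17245 and 85112 reads. Its share had a median of 2.18%. The lowest share was 0.505% in U9G replicate B (Wilson 95% interval 0.497% to 0.512%) and the second lowest 1.25% in G20C replicate A. The highest was 3.58% in G15A replicate B. Its rank ran from 8 to 22 with a median of 15, and it was within the first 20 in 39 libraries and within the first 10 in 11. The widest of the 45 intervals spanned 0.0645 percentage points, so counting error was small beside the differences between libraries; intervals cover counting error only.

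The following levels are normalised CPM, that is CPM with TMM scaling, which adjusts for libraries in which a few miRNAs take a large part of the reads. In wild type, mir-57 stood at 15036 normalised CPM in replicate A, 27830 in B and 31041 in C, a mean of 24636 ± 8467; values below keep the order A, B, C. Replicate A lay 1.85-fold under the next wild-type library, and the coefficient of variation, 34.4%, was wider than in any mutant but U9G. This low wild-type library sets the lower edge of the range against which every mutant is read.

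The genotypes with the highest mean were A10U and G15A. A10U had 29547, 28046 and 32860 normalised CPM (30151 ± 2463, SD, n = 3). G15A had 27834, 32783 and 26302 (28973 ± 3387). In both, 1 library lay above the highest wild-type library and the other 2 lay within the wild-type range.

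Between these and wild type came U16G and U14A. U16G had 22718, 29090 and 25469 normalised CPM (25759 ± 3196). U14A had 20823, 31342 and 23805 (25323 ± 5421). Replicate B was the highest library in both, and in U14A it was slightly above the wild-type range.

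The lowest mean belonged to G20C, with 13646, 15146 and 22266 normalised CPM (17019 ± 4605). Its replicate A was under the lowest wild-type library, its replicate B was just above that library, and its replicate C was well inside the range. U13A followed with 15918, 18000 and 24021 (19313 ± 4208), all 3 within the wild-type range.

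U9G had the widest spread of the 15 genotypes. Its replicates A and C, with 25147 and 28170 normalised CPM, lay in the upper part of the wild-type range, while replicate B had 5690, the lowest value of mir-57 in the series. The mean of 19669 ± 12200 therefore describes none of the 3 libraries. Replicate B was 4.69-fold below the mean of the other U9G libraries, a difference of -2.23 on the log2 scale, and 30% of the 130 miRNAs tested differed there by more than mir-57. The low value was thus 1 of many departures of this library, and mir-228 and mir-35, given above, were low there and mir-36 high; their part in the value of mir-57 was not tested.

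The other 7 mutants had means between 19804 and 22183 normalised CPM, all below the wild-type mean. A17U was the most even genotype, with 22867, 22331 and 21350 normalised CPM, a mean of 22183 ± 769 and a coefficient of variation of 3.47%. U18A, with 22058, 21819 and 19236, was nearly as even (21038 ± 1565). All of these libraries were inside the wild-type range.

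G12U had 20301, 24418 and 19267 normalised CPM (21329 ± 2725). G11U had 18915, 23041 and 19395 (20450 ± 2256). In both of these duplication-labelled mutants, replicate B was the highest and the others lay close together.

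A19U had 21465, 17352 and 25670 normalised CPM (21496 ± 4159). U22A had 20161, 15522 and 26592 (20758 ± 5560). U21A had 16338, 17861 and 25212 (19804 ± 4746). In these 3 mutants replicate C was the highest, and their lowest libraries came near wild-type replicate A.

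**Figure D2:**
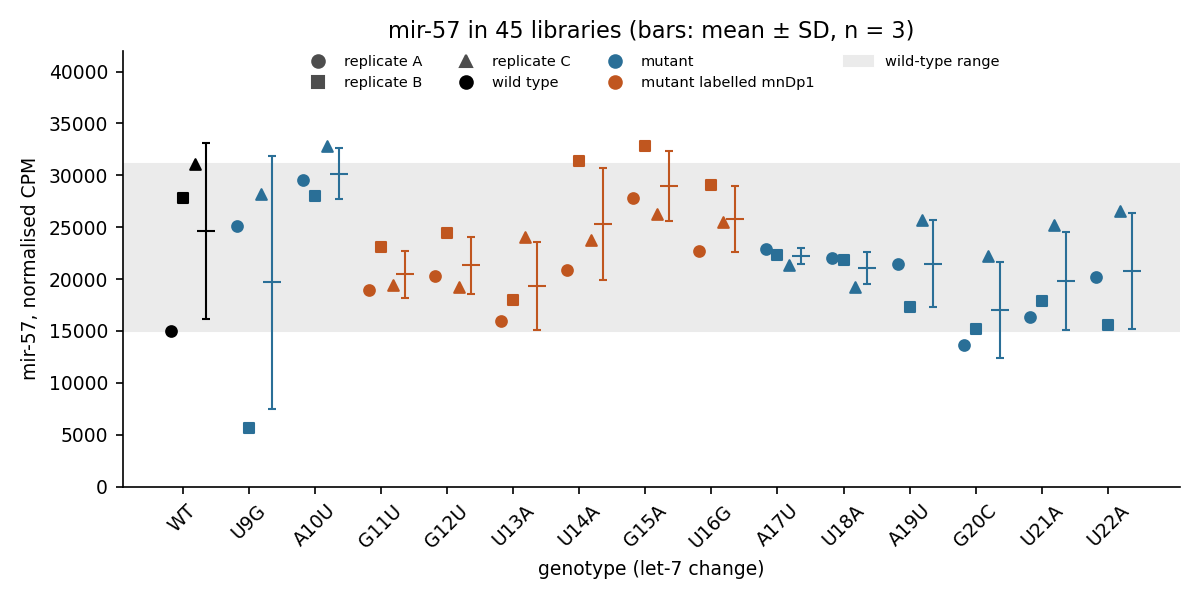
mir-57 in normalised CPM in each of the 45 libraries by genotype, with the shape of the point giving the replicate letter and bars giving mean ± SD (n = 3). The grey band is the range of the 3 wild-type libraries, 15036 to 31041. Its lower edge is WT replicate A alone, and the next wild-type library is at 27830. Of 42 mutant libraries, 37 lie in the band, and U9G replicate B, at 5690, lies far below it.

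The level of mir-57 overlapped wild type in every mutant. Of 42 mutant libraries, 37 lay within the wild-type range, 3 above it and 2 below it. With all their libraries, 9 mutants lay within it. The lower edge of that range is WT replicate A alone, at 15036, while replicates B and C were at 27830 and 31041. All libraries of G11U, G12U, U13A, A17U, U18A, A19U, G20C, U21A and U22A lay below both of these. In U9G, A10U, U14A, G15A and U16G some or all libraries lay above WT replicate B. In none of the 14 mutants did the 3 libraries all fall outside the wild-type range on 1 side. Over all tested miRNAs, 11.9% of the 1820 comparisons did not overlap. Against that share, and with the same wild-type libraries in all 14 comparisons, a count of none is nothing particular to mir-57. Exact two-sided permutation tests on normalised CPM gave p from 0.3 in G20C to 0.9 in U14A and U16G; with 3 libraries against 3, p cannot go below 0.1. In the order of the genotype means, the largest step between neighbours was 0.18 on the log2 scale. The SD of single libraries within genotypes was 0.43, or 0.28 without U9G replicate B. The SE of a difference between genotypes was smaller but still above that step. By edgeR it was 0.324 for G20C against wild type, or 0.224 without U9G replicate B. The order of neighbours is therefore not resolved; steps between sorted means are small in any case and do not bear on the comparisons with wild type.

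No mutant was called different from wild type for mir-57 by edgeR's quasi-likelihood test, with p-values adjusted by Benjamini-Hochberg over the 130 miRNAs tested and a threshold of 0.05. The mean was below wild type in 10 mutants and above it in 4. The log2 fold change farthest from 0 was -0.53 in G20C (SE 0.324, 95% interval -1.19 to 0.12, adjusted p = 0.990 by edgeR). The highest was 0.29 in A10U (95% interval -0.36 to 0.95, adjusted p = 0.998 by edgeR). None of the 14 comparisons had an unadjusted p under 0.05, and DESeq2 called 0 of 14 as well.

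The intervals are wide, so a missed threshold does not show that levels were equal. In U13A the log2 fold change was -0.35 (-1.01 to 0.31), in U9G -0.32 (-0.98 to 0.33), in U21A -0.31 (-0.97 to 0.34) and in G11U -0.27 (-0.92 to 0.39). All 4 intervals leave room for a sizeable fall and for a smaller rise. In U22A the log2 fold change was -0.25, in U18A -0.23, in G12U -0.21, in A19U -0.20 and in A17U -0.15. In U14A it was 0.04, in U16G 0.06 and in G15A 0.23 (-0.42 to 0.89). Adjusted p-values by edgeR lay between 0.541, in U9G, and 0.999, in U16G.

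The same test called few miRNAs of any kind. The share of the 130 miRNAs called was 9.23% in U9G, 3.85% in A10U, 1.54% in each of G11U, G12U and U18A, 0.769% in each of G15A, A19U and G20C, and 0% in the other 6 mutants. Read against these shares, a count of 0 of 14 is nothing particular to mir-57.

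Leaving U9G replicate B out narrowed the intervals and kept the count at 0 of 14. The SE of a comparison fell from 0.324 to 0.224 in G20C, whose log2 fold change was then -0.48 (95% interval -0.93 to -0.02, unadjusted p = 0.0405, adjusted p = 0.639 by edgeR). No other mutant had an unadjusted p below 0.05 then. U9G itself, then with 2 libraries, moved from -0.32 to 0.12 (-0.39 to 0.62). Over the 14 comparisons, 1.65% of 1876 tests were called without that library.

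The low wild-type library also weighed on every comparison. Without WT replicate A all 14 log2 fold changes were lower, G20C was at -0.72 (95% interval -1.43 to -0.01, unadjusted p = 0.0457, adjusted p = 0.924 by edgeR), and U14A and U16G turned from slightly above to below wild type, at -0.19 and -0.16. The other wild-type libraries moved G20C the other way, to -0.40 without replicate B (unadjusted p = 0.283 by edgeR) and to -0.27 without replicate C (unadjusted p = 0.455 by edgeR). None of these passed the threshold after adjustment.

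**Figure D3:**
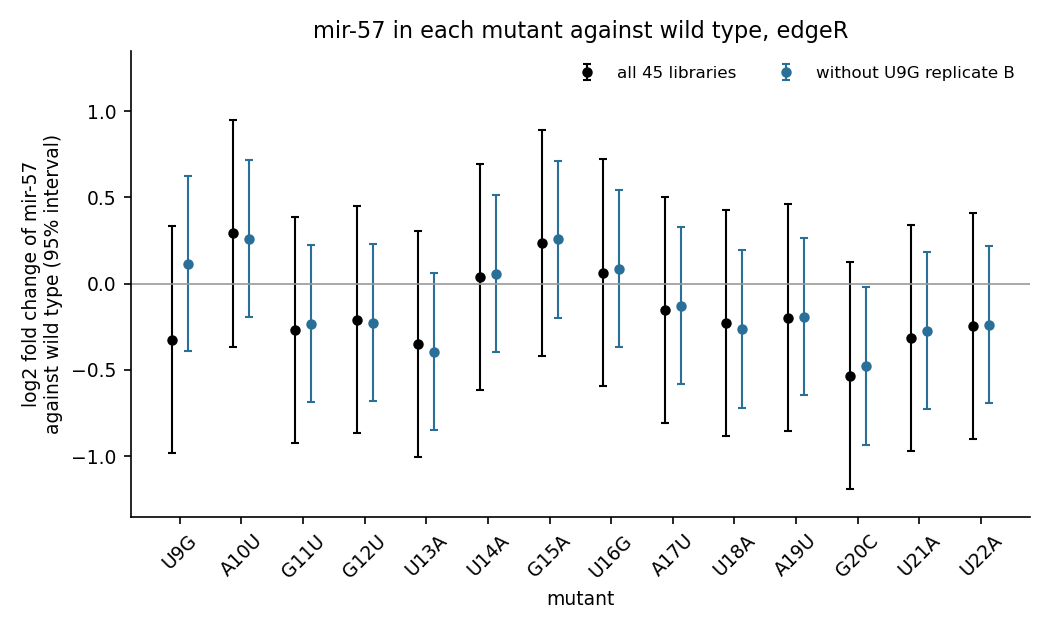
log2 fold change of mir-57 in each of the 14 mutants against wild type, with 95% intervals from edgeR, for all 45 libraries (black) and without U9G replicate B (blue). Every black interval covers 0; without U9G replicate B the interval of G20C, -0.93 to -0.02, is the one that does not, and U9G moves from -0.32 to 0.12.

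A test across all 15 genotypes at once also gave no call for mir-57 (adjusted p = 0.752 by edgeR), where 15.4% of the miRNAs tested were called. Without U9G replicate B the unadjusted p was 0.0467 and the adjusted p 0.169 by edgeR, with 15.7% called. The mean of the 14 mutants differed from wild type by -0.16 on the log2 scale (SE 0.232, 95% interval -0.63 to 0.32, adjusted p = 0.996 by edgeR), a comparison in which 0% of the miRNAs tested were called and 7 had an unadjusted p under 0.05. That difference was -0.39 without WT replicate A, -0.07 without WT replicate B and 0.06 without WT replicate C. Its direction thus turned without WT replicate C.

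The 6 strains labelled mnDp1 were compared with the other 8 mutants, with the strain as the unit. The label was carried by the neighbouring positions G11U to U16G and by no other mutant. In this comparison mnDp1 therefore cannot be told apart from the let-7 position changed. Where these 6 strains were set against wild type, mnDp1 cannot be told apart from the let-7 change either. Strain means of mir-57 ran from 19313 to 28973 normalised CPM with the label and from 17019 to 30151 without it, so the groups overlapped. Mean log2 levels were 14.50 (SD 0.23, n = 6) and 14.32 (SD 0.28, n = 8), a difference of 0.17 (exact two-sided permutation p = 0.239). On counts summed per strain, the log2 difference was 0.18 (SE 0.123, 95% interval -0.08 to 0.45, adjusted p = 0.447 by edgeR). Of 137 miRNAs, 0% were called in that comparison, while 15 had an unadjusted p below 0.05. When U9G replicate B was left out, the edgeR difference was 0.08 (SE 0.135), and the exact permutation p for strain means was 0.544.

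The replicate error of mir-57 was close to the median of all miRNAs tested. Its pooled SD of log2 normalised CPM within genotypes was 0.43, against a median of 0.48 over the 130 miRNAs tested, and 43.1% of them had a lower SD. Without U9G replicate B the SD was 0.28, the median 0.33 and the share with a lower SD 42.5%. The biological coefficient of variation that edgeR estimated was 0.280 for mir-57, between the quartiles of 0.230 and 0.385. Among its neighbours in abundance, the pooled SD was 0.24 for mir-64, 0.25 for mir-61, 0.32 for mir-56 and 0.35 for mir-65 and mir-238. Only mir-81, with 0.62, was above mir-57. Without U9G replicate B the SD of these neighbours ran from 0.12 for mir-238 to 0.61 for mir-81. Then mir-61 and mir-64 were also below mir-57, and mir-56 and mir-65 above it. Genotype means of mir-57 themselves had an SD of 0.26, or 0.23 without U9G replicate B, where the median miRNA had 0.22. Genotypes thus differed in mir-57 about as much as in other miRNAs.

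The mir-51 family, made up of mir-51 to mir-56, is the worm's family related to miR-99 and miR-100 and is kin to the miR-10 group. Of its 6 genes, 5 were tested, and mir-52 was listed at 0 in all libraries. In wild type mir-51 had 32029 ± 2472 CPM, mir-55 27464 ± 1276, mir-56 23043 ± 4566, mir-54 9175 ± 1130 and mir-53 2154 ± 878. mir-57 alone thus stood at a level near that of mir-56, while the 5 members together had 93864 ± 2315 CPM. Over the 14 mutants, 1 of 70 family tests was called, mir-54 in U9G (log2 fold change 1.99, adjusted p = 0.00155 by edgeR), and none was called without U9G replicate B. The same share, 1.43%, was called over all 1820 tests of the 130 miRNAs, so the count is nothing particular to the family. The family's median log2 fold change ran from -0.33 to 0.47 over the mutants, and from -0.35 to 0.12 without U9G replicate B. The median over all 130 miRNAs tested ran from -0.03 to 0.05. A median of 5 miRNAs varies more than a median of 130, so the wider range does not set the family apart. In U9G the family's median was 0.47 where mir-57 was at -0.32, but without U9G replicate B they were at 0.12 and 0.12. In G20C the median was -0.15 where mir-57 was at -0.53, and -0.09 and -0.48 without that library.

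The nearest miRNA genes on the chromosome were far from mir-57. mir-236, 820221 bases away, had 659 ± 88.2 CPM in wild type and was called in no mutant. mir-85, 542955 bases away on the other side, was listed at 0 in all libraries. No miRNA gene with counts thus lay close beside mir-57.

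The miRNAs whose genotype means followed mir-57 most closely were ranked by Pearson's r of log2 normalised CPM over the 15 genotypes, as a description. The highest were mir-2216 (r = 0.791), mir-1022 (0.752), mir-61 (0.745), mir-791 (0.719) and mir-4807 (0.690), where the median over the 129 other miRNAs was 0.135. Only mir-61 among them was as abundant as mir-57. Its geometric genotype means, without U9G replicate B, ran from 19307 normalised CPM in G20C to 29422 in G15A. G20C was thus low and G15A high for both, but mir-61 was picked for a high r, which favours such shared ends. In A10U, the highest genotype of mir-57, log2 levels were 0.47 above the mean over genotypes for mir-57 and 0.11 for mir-61. mir-2216 and mir-4807 had 5.24 and 8.24 CPM in wild type, and each was at 0 in 1 library, so their profiles rest on few reads. Genotype means share libraries, scaling and depth among all miRNAs.

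All 5 values of r were lower without U9G replicate B. There r was 0.607 for mir-2216, 0.724 for mir-1022, 0.715 for mir-61, 0.650 for mir-791 and 0.493 for mir-4807. The 5 highest were then mir-243, mir-1022, mir-61, mir-788 and mir-791, so 3 of the 5 were shared. mir-1022, with 491 ± 58.0 CPM in wild type, and mir-61 held their r with little change.

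**Figure D4:**
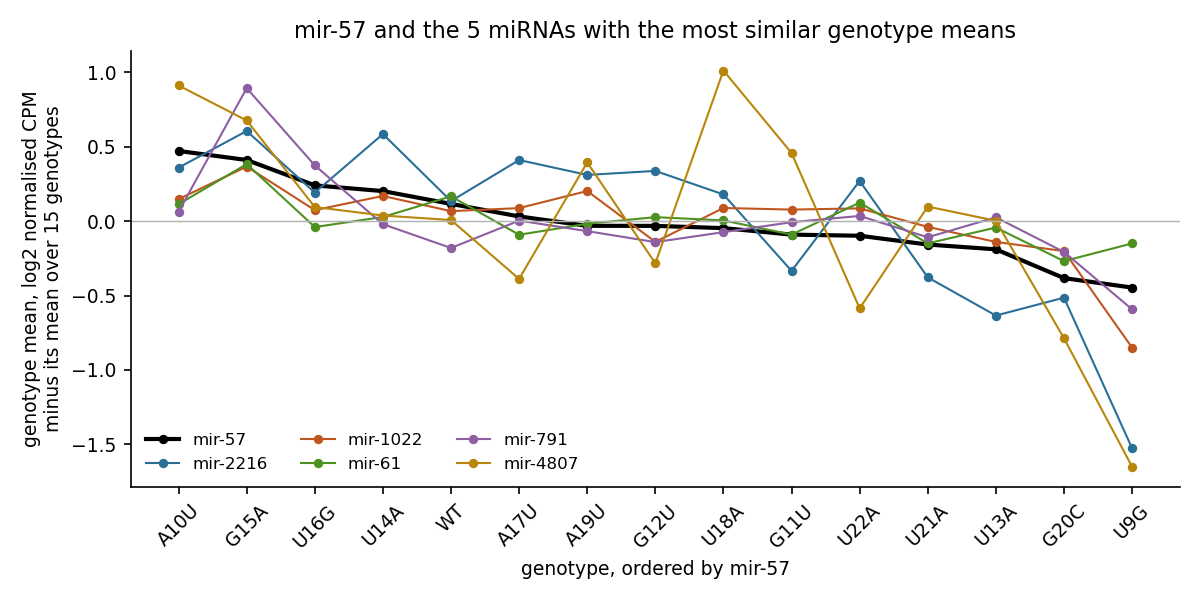
Genotype means of log2 normalised CPM, each miRNA centred on its own mean over the 15 genotypes, for mir-57 (black) and the 5 miRNAs with the highest Pearson's r to it; genotypes are ordered by the log2 mean of mir-57. mir-61 and mir-1022 stay close to mir-57 over most genotypes. mir-2216 and mir-4807, which have few reads, drop by more than 1.5 in U9G, where the mean includes U9G replicate B. Without that library their lowest genotypes are U13A and G20C.

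The miRNAs that ran most opposite to mir-57 were looked up after these values had been seen, and are given as a description. They were mir-82, a relative of bantam in the same family as mir-81 and mir-58.1 (r = -0.874), mir-75 (-0.866) and mir-66 (-0.817). The same 3 had the lowest r without U9G replicate B, at -0.829, -0.834 and -0.877. With the genotypes A10U and G15A, farthest from the median of mir-57, also left out, r over 13 genotypes was -0.762, -0.785 and -0.894. With G20C, the lowest genotype, left out too, which was added after seeing the data, r over 12 genotypes was -0.678, -0.693 and -0.876.

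mir-82 was an abundant miRNA, with 62517 ± 8659 CPM in wild type. Its geometric genotype means, without U9G replicate B, ran from 45449 normalised CPM in G15A to 75670 in G20C. mir-75 ran from 218 in A10U to 413 in G20C, and mir-66 from 23396 in A10U to 30306 in G20C. That these ends are the opposite ends of the order for mir-57 follows from how the 3 were picked.

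Within genotypes, deviations of mir-57 and mir-82 from their genotype means also ran against each other (r = -0.608 over 44 libraries without U9G replicate B). For mir-75 that r was -0.225 and for mir-66 -0.120. Over 133 miRNAs the within-genotype r to mir-57 had a median of 0.031 and a range from -0.664 to 0.749. The replicate letter moved with these values: mir-82 was higher in replicate A than in C in 13 of 15 genotypes, while mir-57 was higher in C than in A in 11. With the letter's mean removed as well, an alternative added after seeing the data, r was -0.456 for mir-82, -0.344 for mir-75 and -0.416 for mir-66. All 3 stayed below 0, and their order in size depended on the letter. All levels are parts of 1 total of miRNA reads, and the part of this in the opposite pattern was not tested.

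**Figure D5:**
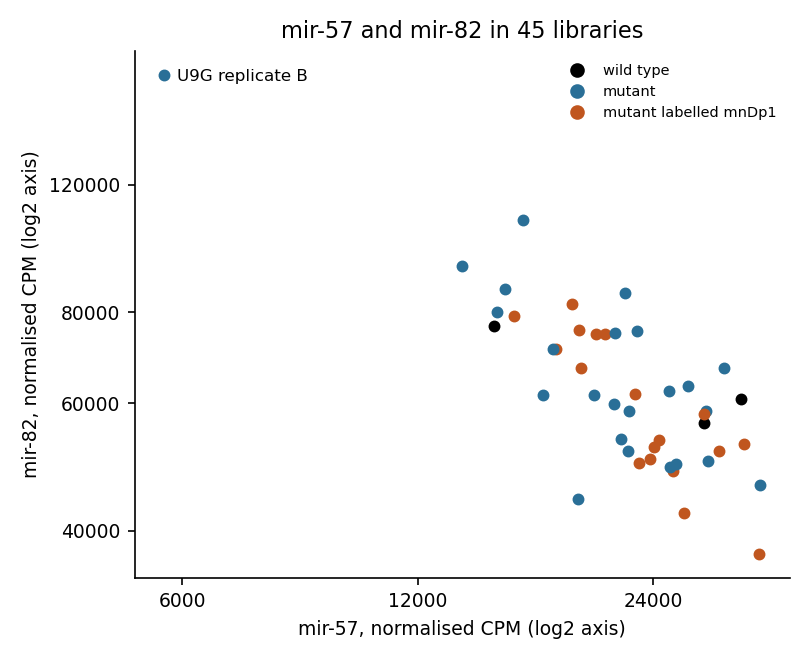
mir-82 against mir-57 in normalised CPM in each of the 45 libraries, both axes on a log2 scale, coloured by wild type, mutant and mutant labelled mnDp1. Libraries with less mir-57 tend to have more mir-82, with exceptions such as U18A replicate C, which is low in both. For deviations from genotype means, r is -0.608 without U9G replicate B, and -0.456 with the replicate letter's mean removed as well. U9G replicate B has the lowest mir-57 and the highest mir-82.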

How the data were processed

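The 45 small RNA libraries of whole mid L4 worms were prepared by adapter ligation, per the labels' protocols. Read counts for each miRNA gene, and counts per library (all, mapped, miRNA and let-7 reads), were deposited by the authors as tables. The submitters' processing notes name cutadapt 1.9, Bowtie2 2.3.4.3 and featureCounts of Subread 1.6.2; the genome build, the strand setting and the treatment of reads with several matches are not given in the sources used here. Ambiguous reads and overlapping genes could lower or remove a miRNA's count.

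The let-7 row was replaced by the count of the form that each genotype encodes, from the library table. That table repeats, for U9G replicate C, the mapped and miRNA reads of U9G replicate A, so summed counts were used as totals and U9G replicate C was left out where mapped reads were the denominator. No 2 libraries held identical counts.

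The test on the counts was that of edgeR 4.0.16, run in R 4.3.3 (TMM, filterByExpr by genotype, quasi-likelihood, 45 libraries in 1 fit with 1 coefficient per genotype), with p-values adjusted over the 130 miRNAs kept and a threshold of 0.05. Standard errors and intervals were computed from the F statistic. Exact two-sided permutation tests used normalised CPM (3 against 3) or strain means of log2 normalised CPM with a prior count of 0.5 (6 against 8). DESeq2 1.42.0, other scalings, filters, references and a replicate block were alternatives. On simulated counts for G15A, 30 of 130 miRNAs were changed, each by much more than mir-57 differed in any mutant. Of these, 28 were recovered, with 1 false call. No call was made in the other mutants. Recovery of differences as small as those of mir-57 was not tested.

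mir-57 and the lists were chosen with earlier results of these data known. Named beside it were the 3 miRNAs above and 3 below it in wild type, the 5 with the highest r over genotype means, the mir-51 family and the nearest miRNA gene on each side within 1000000 bases; miRNAs sharing its seed were not analysed here. All 257 gene IDs matched the Ensembl annotation of WBcel235, which was used for positions.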

Additional observations from a re-analysis of the deposited data

How the results depend on the processing

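No comparison of mir-57 passed the threshold under any alternative run, and the smallest adjusted p was 0.148 (edgeR, U9G at -0.67 without U9G replicate C). Apart from leaving out libraries, 156 of 157 log2 values kept their sign; A17U against the other 13 mutants was 0.0059 in place of -0.15 against wild type. With that reference A10U was at 0.48 (95% interval 0.02 to 0.94, unadjusted p = 0.0396, adjusted p = 0.271 by edgeR), G15A at 0.42 and G20C at -0.41. With 1 library left out, 176 of 184 kept it. The leave-out ranges that crossed 0 were -0.67 to 0.12 in U9G, -0.19 to 0.26 in U14A, -0.16 to 0.29 in U16G, -0.37 to 0.078 in A17U, -0.44 to 0.013 in A19U and -0.39 to 0.056 for the mean of the mutants; that of G20C was -0.72 to -0.27. Wild-type replicates A and C gave the ends of these ranges except in U9G, where U9G replicate B turned the sign and U9G replicate C gave the low end. U14A and U16G also turned without their own replicate B, at -0.11 and -0.0017. The SD between replicates moved from 0.43 to 0.28 without U9G replicate B. Of the 5 miRNAs most like mir-57, 3 were shared without that library and 3 with Spearman's rho. The cause of these shifts was not tested.

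With total counts in place of TMM the median of all miRNAs moved by 0.13 in G11U and 0.15 in G15A, where mir-57 was at -0.14 and 0.38. The labels do not pair replicate letters; same-letter libraries of different genotypes had a median correlation of deviations of 0.190, different letters -0.106, and in 5 of 14 mutants every same-letter pair was over 0.1. With the letter as a replicate block, mir-57 was at -0.53 in G20C (adjusted p = 0.812 by edgeR) and 0.31 in A10U, the test across all genotypes gave an adjusted p of 0.534, and calls over all miRNAs and mutants were 31 in place of 26. With 3 libraries a genotype, precision was limited by the spread between libraries, not by reads.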

Other observations

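Of the 61 miRNA genes listed at 0 in every library, 50 (82.0%) overlap another annotated gene in WBcel235, against 102 of the 196 with counts (52.0%). Overlap was counted on either strand and by any number of bases, and its part in the zeros was not tested. The hairpin of mir-57 overlaps another gene by 5 bases and received counts. Replicate C had more mir-57 than replicate A in 11 of 15 genotypes, replicate A was the lowest library in 7 and replicate C the highest in 8.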
